A study of Mus musculus with 7 samples.

Results

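The genes described here are 10 members of the ATF4 amino acid stress response (Atf4, Atf5, Ddit3, Ddit4, Asns, Trib3, Chac1, Psat1, Phgdh and Shmt2), chosen by name with earlier results of these data known. All 10 had a row in a table of 39179 genes measured in regulatory T cells, which express Foxp3 and hold back immune responses. The cells were sorted as CD4+TCRb+CD25hi Foxp3+ from lymph nodes of C57BL/6 mice aged 3 weeks, and their messenger RNA was sequenced. The double-knockout (dKO) group had the genotype Id2fl/flId3fl/flFoxp3cre, so Id2 and Id3, inhibitors of E protein transcription factors, lose their floxed parts where the Foxp3 locus drives Cre. Control mice carried Id2fl/+Id3fl/+Foxp3cre, so they share the Cre allele and keep 1 unfloxed copy of each gene. The series' design text gives Foxp3Cre/Cre for the dKO mice. A comparison with replicates (2 control and 3 dKO libraries) is called the replicated comparison, and an unnumbered pair had 1 library titled control and 1 titled dKO. The genotype tags of that pair are the reverse of its titles, so its libraries are named by title, as the library labelled control and that labelled dKO. Whether each library came from its own animal is not given, so p-values measure only the spread between libraries, which may be technical. In sorted bulk samples, fewer cells of a kind and less RNA per cell cannot be told apart.

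ATF4 is a basic leucine zipper (bZIP) transcription factor whose protein is made when the translation factor eIF2 is phosphorylated, for instance by GCN2 when amino acids run short or by PERK under endoplasmic reticulum stress. Because this control acts on translation, ATF4 protein can change without its messenger RNA. Its targets make and import amino acids and supply one-carbon units, which dividing T cells need in quantity. Other targets, among them CHOP (the product of Ddit3), TRIB3 and CHAC1, limit or end the response.

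Values of the replicated comparison are group means from the authors' deposited table, given without a standard deviation. Each is an average of reads scaled by the library's size factor, called scaled counts here. They summed to 3.90e+07 in control and 3.99e+07 in dKO, and control libraries had on average 1.32 times the depth of dKO libraries. For genes with low means, the reads of the control libraries could be recovered, and these are named as the deeper library (size factor 1.29) and the shallower library (size factor 1.09). The authors' deposited table gave the targeted gene Id2 783 scaled counts in control against 61.1 in dKO, with an adjusted p of 1.48e-08. For Id3 the authors' deposited table gave 1376 against 891, with an adjusted p of 0.209. In the pair, Id2 had 18.6 FPKM in the library labelled control and 9.69 in the library labelled dKO, while Id3 had 160 and 221. The markers of the sorted cells were present, with Foxp3 at 13481 scaled counts in control and 10942 in dKO Il2ra at 32376 and 32127, and Ctla4, an inhibitory receptor, at 13258 and 26706. Of the 8 genes of regulatory T cell identity, Ctla4 was the 1 that passed the test (adjusted p 4.71e-05, the authors' deposited table). Of 9 lists of markers of other cells, the B cell list summed to 1143 scaled counts in control and 1332 in dKO, the myeloid list to 144 and 150 and the dendritic cell list to 168 and 112. The plasma cell list summed to 11612 and 17991, mostly from Irf4 (6590 and 9389), Xbp1 and Prdm1, which activated regulatory T cells express too. Of its defining markers, Igj had 70.3 and 133 and Sdc1 had 23.4 in control, and neither passed, and its part in the members' changes was not tested. In 7 of these 9 lists no gene passed the test, and the others had 1 each, Prdm1 in the plasma cell list (higher) and Xcr1 in the dendritic cell list (lower).

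Among the members, Asns, Phgdh and Psat1, enzymes that make asparagine and serine, rose in dKO regulatory T cells. The enzyme Shmt2 and the member factors Atf4, Atf5 and Ddit3 did not pass the test. A difference between enzymes and factors was not tested. Of the 10 members, 4 rose (Asns, Trib3, Phgdh and Psat1), 0 fell and 6 did not pass at an adjusted p under 0.05 in the authors' deposited table. Over all 31641 genes with a p, 3.38% rose and 3.18% fell, 6.56% in either direction. Of 15446 genes whose mean was at least 10, 6.8% rose and 6.48% fell, 13.3% in either direction. The median log2 fold change of the 10 members was 0.45, against -0.02 over all genes with a p. The members and the lists below were chosen with earlier results of these data known. Such shares and medians are therefore descriptions and not tests. At an unadjusted p under 0.05 (DESeq, in the authors' deposited table) 6 of the 10 members were past the threshold, all 6 higher in dKO. Of the 31641 genes, 4264 were past it in either direction, and 2089 of these were higher in dKO. All 10 are protein-coding genes, and their spans on GRCm38 in the authors' deposited table are chr6:7675169-7693254 (Asns), chr3:98313170-98339990 (Phgdh), chr19:15904678-15947337 (Psat1), chr10:127517123-127522444 (Shmt2) and chr2:152337422-152344032 (Trib3). The others lie at chr2:119351229-119354381 (Chac1), chr15:80255184-80257540 (Atf4), chr7:44812257-44816658 (Atf5), chr10:127290774-127296288 (Ddit3) and chr10:59949675-59951770 (Ddit4).

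**Figure D1:**
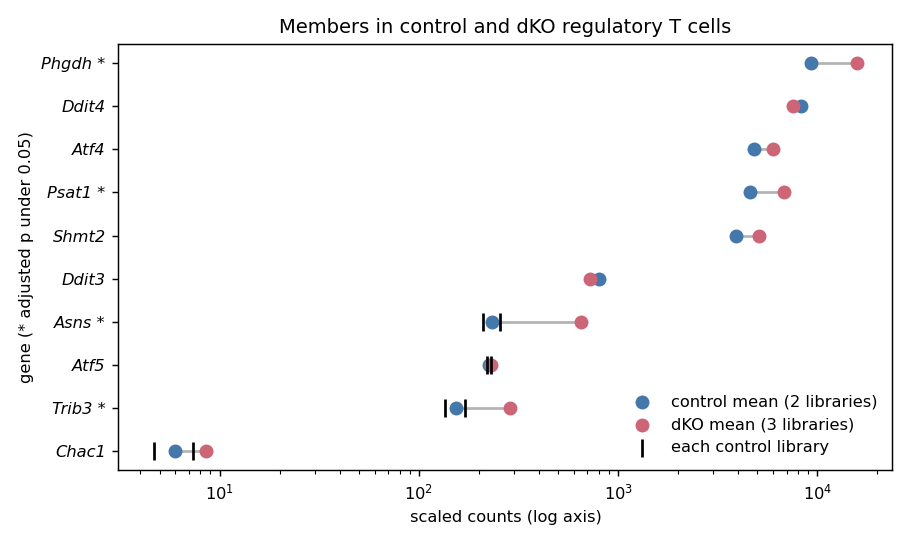
Group means of the 10 members in scaled counts on a log axis, with control in blue, dKO in red and, where reads could be recovered, each control library as a black tick. The dKO means of Asns and Trib3 lie above both control libraries, while Atf5 has its groups at the same place and Ddit3 and Ddit4 have dKO slightly below control.

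Asparagine synthetase (Asns), which makes asparagine from aspartate and glutamine, showed the largest change of the 10. Its mean went from 233 scaled counts (control) to 654 (dKO), 2.80-fold, and the authors' deposited table listed a log2 of 1.49 and an adjusted p of 9.96e-16. The control mean held 329 reads in the deeper library and 230 in the shallower, or 256 and 211 scaled counts. The dKO mean was therefore above both, by 1.35 and 1.63 on the log2 scale. By raw p, Asns was number 102 of the 31641 genes. The authors' deposited table marks no overlap of Asns with another gene.

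The first enzymes of serine synthesis moved with it. Phgdh, phosphoglycerate dehydrogenase, which diverts a glycolytic intermediate into serine synthesis, had 9325 scaled counts in control against 15836 in dKO (log2 0.76), at an adjusted p of 5.24e-07 by the authors' deposited table. Psat1, the aminotransferase of the next step, had 4601 and 6783 (log2 0.56), at an adjusted p of 0.001 by the authors' deposited table. It is marked as overlapping another gene, and the overlap of 556 bases is with Gm3329, an opposite-strand pseudogene with 0.389 and 2.18 scaled counts. Psph, the phosphatase that completes serine, had 1491 and 1859 and did not reach the threshold (log2 0.32, adjusted p 0.221, the authors' deposited table). The 3 genes together held 15417 scaled counts in control and 24478 in dKO. Phgdh has 21 near-identical copies in the mouse transcript annotation (at least 90% identity over 200 bases or more), of which 8 had reads, and with them its log2 ratio was again 0.76. Psat1 has 1 such copy, which left its log2 ratio at 0.56.

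Shmt2, the mitochondrial enzyme that turns serine into glycine and a one-carbon unit, had a mean of 3922 scaled counts in control against 5077 in dKO. At a log2 of 0.37 it missed the threshold, since the authors' deposited table listed an adjusted p of 0.0636. Adjusted only over genes with a mean of 10 or more it passed (Benjamini-Hochberg on the authors' DESeq p, 0.0312), and over protein-coding genes likewise (0.045). The table marks Shmt2 as overlapping another gene, Ndufa4l2, which runs on the opposite strand over 30 bases and had 0.389 and 1.11 scaled counts.

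Because several members rose together, the letters upstream of their start sites were read, in RefSeq windows on GRCm38.p6 from 250 bases before to 50 after each start. All 10 members had a window, and Atf5 and Psat1 had 2 each. ATF4 with a C/EBP partner binds a composite element with the core TGATGNAA, which was searched on both strands and occurs in 3.97% of all 32851 windows. Counted by gene, 4.51% of 27025 genes had it in a window, as did 3 of the 10 members, Asns, Chac1 and Trib3. The variant TGGTGCAA, noticed only after the members were read, occurs in 0.536% of windows (0.644% of genes) and was found in Trib3 and Psat1. The ATF-type letters TGACGCAA, in 0.49% of windows (0.562% of genes), were found in Chac1. The palindrome TGACGTCA, in 1.79% of windows (2.03% of genes), was found in 0 of the members. No 2 of these matches overlapped. The stretches below end at the base before the start site, and capitals mark the matches. They are shown for the 4 members that rose and for Chac1, whose window has 2 matches. A match is a description of letters and not evidence of binding.
Asns, chr6:7693210-7693339, minus strand: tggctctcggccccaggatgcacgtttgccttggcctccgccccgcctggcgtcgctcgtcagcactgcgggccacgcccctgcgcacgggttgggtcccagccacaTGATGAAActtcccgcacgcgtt
Psat1, chr19:15925060-15925209, minus strand: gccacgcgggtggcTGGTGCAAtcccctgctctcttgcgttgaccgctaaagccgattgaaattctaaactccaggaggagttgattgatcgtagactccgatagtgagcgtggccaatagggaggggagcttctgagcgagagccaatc
Phgdh, chr3:98339970-98340099, minus strand: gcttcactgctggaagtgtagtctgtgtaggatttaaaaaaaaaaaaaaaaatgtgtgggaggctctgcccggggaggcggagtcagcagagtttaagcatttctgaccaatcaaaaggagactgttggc
Trib3, chr2:152344061-152344190, minus strand: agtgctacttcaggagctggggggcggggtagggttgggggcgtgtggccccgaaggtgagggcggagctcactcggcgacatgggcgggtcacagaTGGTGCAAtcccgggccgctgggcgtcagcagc
Chac1, chr2:119350992-119351241, plus strand: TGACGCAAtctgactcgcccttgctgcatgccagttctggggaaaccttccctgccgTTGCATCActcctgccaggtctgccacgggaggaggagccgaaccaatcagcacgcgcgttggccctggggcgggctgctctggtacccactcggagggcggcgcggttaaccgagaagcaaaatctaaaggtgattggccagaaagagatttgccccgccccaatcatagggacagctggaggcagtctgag
Counting bases before the start as negative, the match TGATGAAA of Asns lies at -23 to -16. The TGGTGCAA matches lie at -33 to -26 in Trib3 and at -136 to -129 in Psat1, and the TGATGNAA match of Trib3 lies after the start, at 15 to 22, outside the printed stretch. In Chac1 both matches lie further away, at -250 to -243 and, on the opposite strand, at -193 to -186. The printed stretch of Phgdh has no match, and none of the windows of Atf4, Atf5, Ddit3, Ddit4 and Shmt2 had one. The RefSeq start of Psat1 used here lies inside the longer span (15904678 to 15947337) that the authors' deposited table gives that gene. Start sites differ between the annotations for Asns, Trib3, Phgdh, Chac1 and Ddit3 as well. By the authors' spans, the Asns match (7693225 to 7693232) lies inside the gene, which begins at 7693254. The TGATGNAA match of Trib3 (152344039 to 152344046) lies before the start at 152344032.

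Among the factors, Atf4 had a control mean of 4798 scaled counts and a dKO mean of 6016. By DESeq in the authors' deposited table its log2 was 0.33, its unadjusted p 0.0388 and its adjusted p 0.311. Atf5, a close relative of ATF4 that is also under translational control, had 225 and 229 scaled counts, and the authors' deposited table listed a log2 of 0.03 and an adjusted p of 1. Its control libraries held 284 and 250 reads, or 221 and 229 scaled counts, so the dKO mean lay at the upper of the 2. Ddit3, which encodes the stress factor CHOP, had 799 and 726, for which the authors' deposited table listed a log2 of -0.14 and an adjusted p of 1. Its control mean allows 2 pairs of reads, 1024 and 875, or 2052 and 2, so the spread between its control libraries is not known. The 3 factors together held 5822 scaled counts in control and 6971 in dKO. Ddit3 overlaps Mars, the methionyl-tRNA synthetase gene, by 68 bases on the opposite strand, and Atf5 overlaps Nup62, a nuclear pore gene with 3307 and 3886 scaled counts, by 571. The sources used here do not say if reads were assigned by strand, so some at these ends may belong to either gene.

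The stress effectors differed from one another. Trib3, a pseudokinase that binds AKT and ATF4 and restrains both, rose from 154 to 285 scaled counts (log2 0.89), at an adjusted p of 0.0037 by the authors' deposited table. Its control libraries held 175 and 187 reads, or 136 and 171 scaled counts, so the dKO mean was above both, by 1.07 and 0.74 on the log2 scale. Chac1, which degrades glutathione, was barely detected. Its reads could be recovered in all 5 libraries: 6 and 8 in control and 6, 7 and 10 in dKO, or 4.66 and 7.32 against 6.46, 7.69 and 11.6 scaled counts. The groups overlapped, at 5.99 ± 1.88 (SD, n = 2) and 8.59 ± 2.70 (SD, n = 3), and an exact two-sided permutation test gave p = 0.4, where 0.2 is the smallest p this design allows. Ddit4, which encodes REDD1, an inhibitor of the growth kinase complex mTORC1, had 8247 and 7555 scaled counts, for which the authors' deposited table listed a log2 of -0.13 and an adjusted p of 1.

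Levels of different genes were compared as scaled counts in CPM per kilobase of exon. On that scale the control order was Ddit4 (126), Phgdh (96.3), Atf4 (71.5), Shmt2 (43.7), Psat1 (27.8), Ddit3 (12.0), Atf5 (2.90), Asns (2.19), Trib3 (1.86) and Chac1 (0.094). In dKO, Phgdh led at 159, with Ddit4 at 112 and Atf4 at 87.3, and Asns (5.98) and Trib3 (3.36) stood above Atf5 (2.88). Asns thus stayed a low-abundance transcript in both groups, at a small part of the level of Phgdh. These levels are group means with no spread, so neighbours in the order could not be tested.

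**Figure D2:**
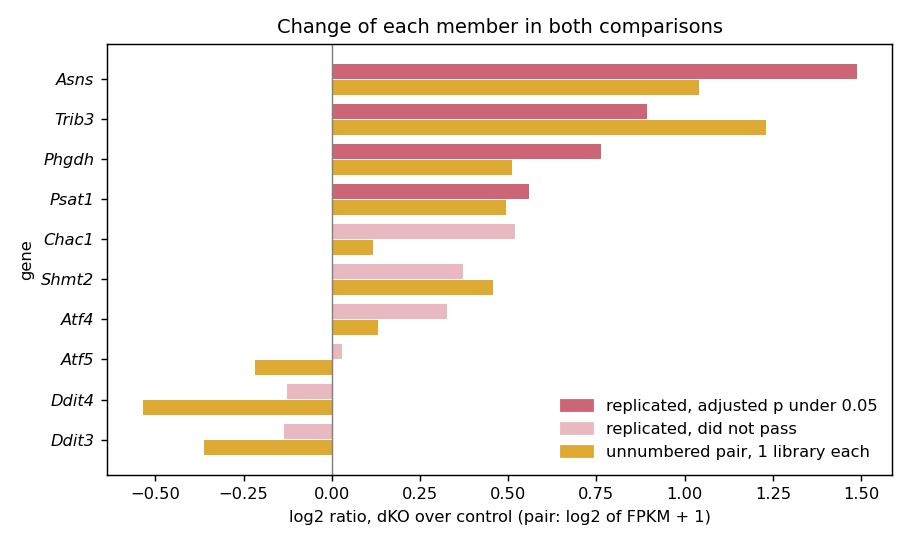
Log2 ratio of dKO over control for each member, with red bars for the replicated comparison (dark where the adjusted p was under 0.05) and yellow bars for the unnumbered pair of 1 library each, on log2 of FPKM + 1. Asns, Trib3, Phgdh, Psat1 and Shmt2 point to higher values in both, and Ddit3 and Ddit4 to lower values in both.

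The unnumbered pair, which shares no library with the replicated comparison and was processed separately, gave each member a second value without a test. FPKM, a depth-scaled count of fragments per kilobase, is given first for the library labelled control, then for that labelled dKO. Asns had 4.50 and 10.3 FPKM, a log2 ratio of 1.04 after adding 1 FPKM to each. Trib3 had 2.78 and 7.88, with a log2 ratio of 1.23. Both were past a log2 ratio of 1, as were 2.67% of the 8681 genes that reached 5 FPKM in either library, while 3.16% were at -1 or less. After adding 5 FPKM in place of 1, both fell short of it, at 0.69 for Asns and 0.73 for Trib3. Both reached 5 FPKM only in the library labelled dKO. Psat1 had 62.6 and 88.7 FPKM (log2 0.49), Phgdh 37.6 and 54.1 (0.51) and Shmt2 65.6 and 90.4 (0.46). The enzymes therefore stood higher in the library labelled dKO, at between 0.46 and 1.04 on the log2 scale. Atf4 had 92.6 and 101 FPKM, with a log2 ratio of 0.13. Ddit3 had 46.4 and 35.9 (log2 -0.36), Ddit4 had 215 and 148 (-0.53) and Atf5 had 6.61 and 5.55 (-0.22), all lower in the library labelled dKO. The Atf5 value comes from a transcript of the non-coding type, since its coding entry is listed at 0 in both libraries. Chac1 had 0.232 and 0.337 FPKM, under the minimum. Of the 7 members with 5 or more FPKM in both libraries, 6 had the same sign in both comparisons, the exception being Atf5. If the tags and not the titles of the pair were right, every sign in the pair would turn, and 1 of the 7 would match. With 1 library per group, nothing is known of the spread behind these ratios.

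Upstream of ATF4, of 16 genes for the eIF2 kinases, eIF2, its exchange factor and its phosphatase, 1 rose and 0 fell, with a median log2 fold change of 0.12. That is 6.25% called, beside 6.56% of all tested genes in either direction. The share that rose was 3.38% of all tested genes and 6.8% of those with a mean of at least 10. The gene that rose was Eif2ak3, which encodes PERK, from 816 to 1302 scaled counts (log2 0.67, adjusted p 0.0005, the authors' deposited table). In the pair Eif2ak3 had 6.19 FPKM in the library labelled control and 9.32 in the library labelled dKO. Eif2ak4, which encodes the amino acid sensor GCN2, had 639 and 563 scaled counts (log2 -0.18, adjusted p 1, the authors' deposited table). Its control libraries, at 588 and 691, were both above the dKO mean. Ppp1r15a, the inducible subunit that removes the phosphate from eIF2, had 3629 and 5961 scaled counts, yet its adjusted p was 0.791 in the authors' deposited table. The Eif2ak3 call rests on a gene marked as overlapping another, and without such genes 0 of this list passed, while adjusting over genes with a mean of at least 10 gave 2.

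Of 14 bZIP partners and relatives of ATF4, 5 rose (35.7%) and 0 fell, beside 3.38% of all tested genes that rose, or 6.8% of those with a mean of at least 10. Without genes marked as overlapping another, Cebpb among them, 4 passed. The median log2 fold change was 0.35 without Atf7, whose symbol has 2 rows. The row counted in the list was at 0 in control and at 1.10 scaled counts in dKO, and the other had 87.2 and 59.3 (adjusted p 0.380, the authors' deposited table). With that second row the median was 0.27. Jdp2, a repressor of AP-1 sites, went from 107 to 408 scaled counts (log2 1.93, adjusted p 3.39e-20, the authors' deposited table), and its control libraries were at 102 and 112. Cebpa, a C/EBP factor best known from myeloid cells and liver, rose by 1.81 and Nfil3, a circadian and lymphoid repressor, by 1.22 (log2, the authors' deposited table). Against each control library alone Cebpa stood 1.21 and 2.84 higher on the log2 scale. Cebpb, a C/EBP partner of ATF4, rose from 382 to 697 scaled counts (adjusted p 0.0462) in the authors' deposited table, with its control libraries at 342 and 421. Atf3, a stress-induced repressor, rose from 6.63 to 66.1 scaled counts (adjusted p 0.0092) in the authors' deposited table. Its dKO reads per library were not solved. The pair had it near the floor, at 0.0893 FPKM in the library labelled control and 0.130 in the library labelled dKO. Cebpg, another partner of ATF4, had 1921 and 2162 scaled counts, at an adjusted p of 0.931 by the authors' deposited table. In the pair, Cebpa had 7.08 and 53.3 FPKM, Jdp2 3.79 and 7.59 and Nfil3 10.5 and 20.6, each higher in the library labelled dKO, whereas Cebpg had 10.8 and 5.61.

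Of 37 matched genes (38 symbols) among other targets of ATF4 and CHOP, 3 rose, 1 fell and 33 did not pass, with a median log2 fold change of 0.19. The 10.8% called lies between the 6.56% of all tested genes and the 13.3% of those with a mean of at least 10. The rises were Got1, which makes aspartate, the substrate of ASNS (log2 0.65, adjusted p 0.0002), Mthfd2, a mitochondrial one-carbon enzyme (0.48, 0.0081), and Slc7a5, the large neutral amino acid transporter (0.42, 0.0261), all from the authors' deposited table. Got1 went from 1581 to 2484 scaled counts, and in the pair from 31.2 FPKM in the library labelled control to 53.0 in the library labelled dKO. The CHOP target Tnfrsf10b, a death receptor, fell from 343 to 206 scaled counts (adjusted p 0.0368) in the authors' deposited table. Sesn2, an ATF4 target that restrains mTORC1, had 532 and 544, and Eif4ebp1, which restrains translation, had 431 and 343 (adjusted p 0.362) in the authors' deposited table. None of the 11 aminoacyl-tRNA synthetase genes in the list (Nars, Aars, Wars, Gars, Sars, Mars, Cars, Iars, Lars, Tars and Eprs) passed, and their log2 fold changes ran from -0.03 (Sars) to 0.37 (Cars) in the authors' deposited table.

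Serine, glycine and one-carbon enzymes besides the members held 5 rises and 1 fall among 16, with a median log2 fold change of 0.29. That is 37.5% called, beside 6.56% of all tested genes and 13.3% of those with a mean of at least 10. Tyms, which makes thymidylate with a one-carbon unit, rose by 0.82 (log2, the authors' deposited table). Shmt1, the cytosolic counterpart of Shmt2, rose by a log2 of 0.60, from 1449 to 2192 scaled counts (adjusted p 0.0007), and Aldh1l1, a folate dehydrogenase, from 74.3 to 183 (adjusted p 0.0003, the authors' deposited table). The control libraries of Aldh1l1 stood at 96.4 and 52.2 scaled counts, so its log2 was 0.93 against the first and 1.81 against the second. Without genes marked as overlapping another, 3 in place of 6 genes of this list passed.

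The list of mTORC1, which REDD1 inhibits, and its inhibitors held 2 falls and 0 rises among 16, with a median log2 fold change of -0.13. Its 12.5% called lies between the 6.56% of all tested genes and the 13.3% of those with a mean of at least 10, in either direction. The share that fell was 3.18% of all tested genes and 6.48% of those with a mean of at least 10. Both falls were sestrins, stress proteins that restrain mTORC1: Sesn1, from 4221 to 1868 scaled counts, and Sesn3, from 3993 to 2655 (adjusted p 2.07e-16 and 0.0002) in the authors' deposited table. Sesn1 had 51.7 and 21.7 FPKM in the pair and Sesn3 had 48.6 and 35.1, both lower in the library labelled dKO. Sesn1 is known as a target of p53 and Sesn3 as a target of FoxO factors. Mtor (1719 and 1637 scaled counts), Rptor (1792 and 1580) and Rheb (2263 and 2307), which carry or activate the complex, did not pass (the authors' deposited table).

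Among paralogs of the members, Trib1 rose by a log2 of 1.57, from 2630 to 7835 scaled counts (adjusted p 0.0001), while Trib2 had 11360 and 8681 (log2 -0.39, adjusted p 0.268) in the authors' deposited table. TRIB1 and TRIB2 are best known for binding C/EBP factors. In CPM per kilobase of exon, Trib2 stood at 68.0 and 50.7, against 1.86 and 3.36 for Trib3. The pair had Trib1 at 14.9 and 37.2 FPKM and Trib2 at 130 and 80.9. Asnsd1, a paralog of Asns, had 2675 and 2773 scaled counts, Chac2 98.3 and 109 and Ddit4l 0.777 and 1.08, with an adjusted p of 1 for each in the authors' deposited table.

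Of the other branches of the unfolded protein response, 3 of 15 genes rose and 0 fell, with a median log2 fold change of 0.32. The share that rose was 20%, beside 3.38% of all tested genes and 6.8% of those with a mean of at least 10. The 3 genes were Edem1 and Sdf2l1, which act on misfolded proteins in the endoplasmic reticulum (log2 0.94 and 0.80), and Creld2 (log2 0.44, adjusted p 0.0406), in the authors' deposited table. Hspa5, the chaperone BiP, had 20020 and 25042 scaled counts (log2 0.32, adjusted p 0.168), and Xbp1 3750 and 6388 (log2 0.77, adjusted p 0.156) in the authors' deposited table. Cell division genes rose as well, all 10 of that list, with a median log2 fold change of 1.05. By adjusted p the first 4 were Plk1, a mitotic kinase, Birc5, of the chromosomal passenger complex, Ccnb2, a mitotic cyclin, and Nusap1, a spindle protein, with log2 fold changes between 0.97 (Ccnb2) and 1.07 (Plk1) in the authors' deposited table. The proliferation marker Mki67 had 11467 and 25001 scaled counts (adjusted p 0.0495, the authors' deposited table), and in the pair the 10 genes summed to 302 FPKM in the library labelled control and 499 in the library labelled dKO. That list was chosen with this rise known, and its part in the rise of the enzymes was not tested.

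**Figure D3:**
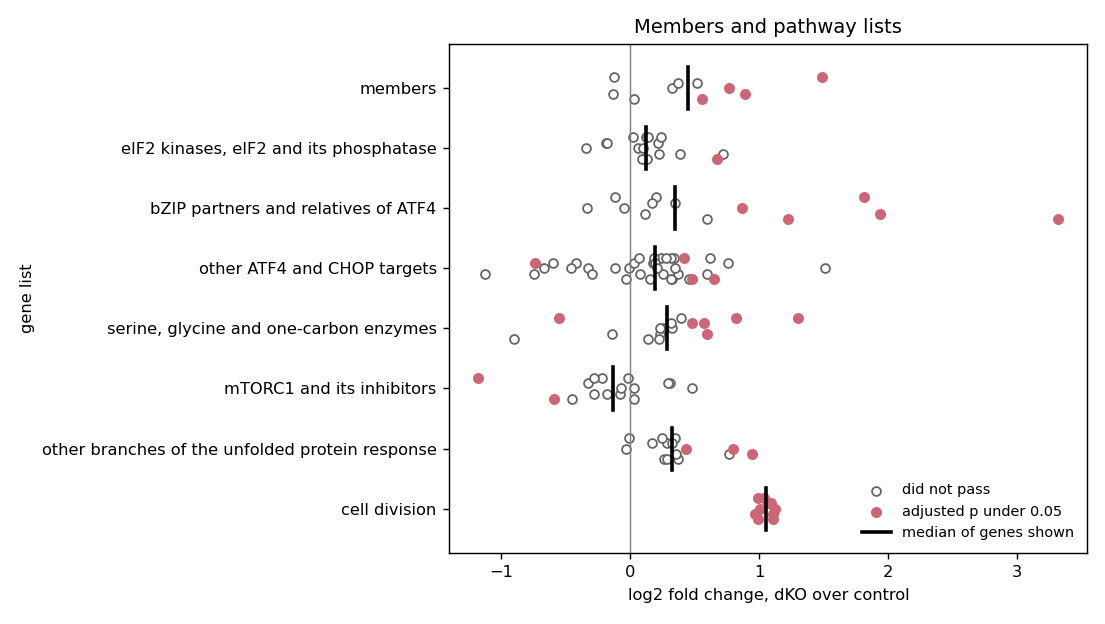
Log2 fold change of dKO over control for each gene of each list, filled red where the adjusted p was under 0.05 and open where it was not, with a black line at the median of the genes shown. The bZIP list reaches furthest to the right (Atf3 at 3.32), the mTORC1 list lies mostly left of 0, and all 10 cell division genes sit near their median of 1.05.

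The 7 pathway lists without those of cell identity and cell division held 113 tested rows of the authors' deposited table (112 symbols, with Atf7 in 2 rows), of which 17 rose and 4 fell. The share that rose was 15.0%, beside 3.38% of all tested genes and 6.8% of those with a mean of at least 10. It is a description only, since the lists were chosen with earlier results of these data known. Without genes marked as overlapping another, 15 in place of 21 passed, and adjusted over genes with a mean of at least 10, 23 did. Together with the members, 94 genes of these lists reached 5 FPKM in either library of the pair and had a finite fold change in the replicated comparison, and 78 of them had the same sign in both. A gene can reach that minimum only through the library where it is high, so the count was repeated, after seeing the data, over genes with 5 or more FPKM in both libraries. Of 88 such genes 73 had the same sign (83%), beside 70.3% of 7380 genes over the whole data set. Of the 18 among them that had passed the test, 18 had the same sign, beside 92.5% of 964 such genes over the whole data set. With the titles of the pair turned to match its tags, 15 of the 88 and 0 of the 18 would have the same sign.

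**Figure D4:**
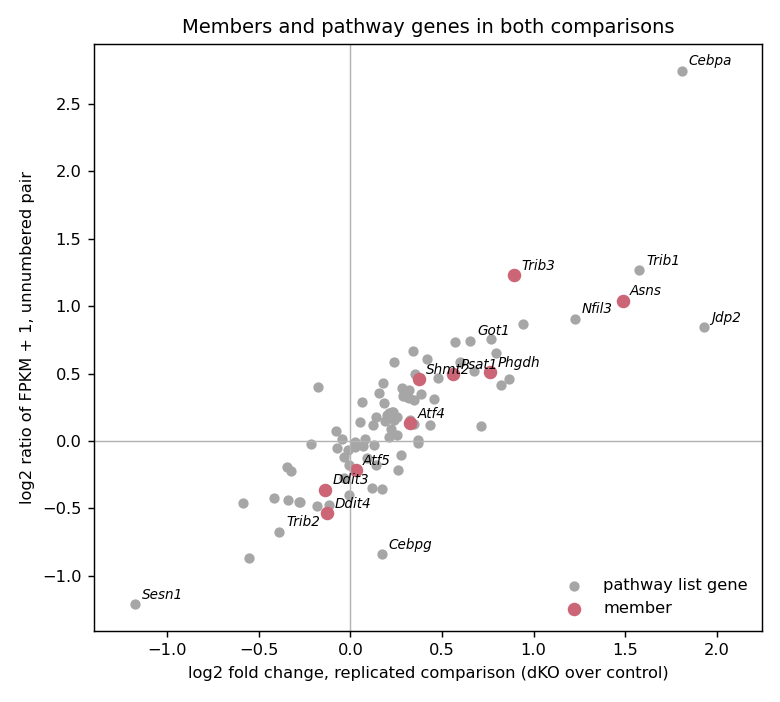
Log2 fold change in the replicated comparison (horizontal) against the log2 ratio of FPKM + 1 in the unnumbered pair (vertical). Shown are the 9 members (red) and the other pathway genes (grey) with 5 or more FPKM in either library, 94 in all. Asns, Trib3, Cebpa, Trib1 and Jdp2 lie in the upper right, Sesn1 in the lower left, and Cebpg is lower only in the pair. Asns, Trib3 and Jdp2 reached 5 FPKM only in the library labelled dKO. Their upper position is therefore set by this minimum and cannot count as agreement between the comparisons.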

How the data were processed

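Messenger RNA of sorted regulatory T cells was sequenced in 7 libraries. The replicated table holds, per the file headers, the abundance of each group, and its deposited signal values were found to be means of whole reads over size factors: for all 16851 genes with a control mean up to 50, exactly 1 pair of read counts fitted within 6e-05. Reads per library were solved from the means in this way, after tests on simulated data. The deposited log2 fold changes, raw p-values and adjusted p-values were used as the authors gave them (RSEM and DESeq, build mm10 or GRCm38, per the submitters' processing notes, versions not given in the sources used here). The deposited signed fold column, read as a score, was not used. Since the table holds group means, no test of these data was added except an exact permutation test of Chac1, the member whose reads could be solved in every library. Recomputed log2 ratios and Benjamini-Hochberg values differed from the deposited ones by at most 5.02e-05 and 0.00124.

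For the pair, the deposited FPKM values come from TopHat 1.4.0 and Cuffdiff (version given as 0.0.6) on mm9, per the submitters' processing notes. They were summed over transcript entries of a gene (97.5% of 27901 entries matched a RefSeq symbol), and log2 ratios used a pseudocount of 1 FPKM. The deposited Cuffdiff p-values and test score compare 1 library with the other and are not used. Copies were sought with blastn 2.17.0 in GENCODE M21 transcripts.

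The members and the 9 pathway and 9 marker lists (177 symbols, 174 matched in the replicated table) were chosen with earlier results of these data known. Genes named are the members, their paralogs, Id2 and Id3, and up to 4 genes per list with the smallest adjusted p past the threshold. Others named (among them Eif2ak4, Ppp1r15a, Cebpb, Cebpg, Atf7, Sesn2, Eif4ebp1, Psph, Mki67, Mtor, Rptor, Rheb, Hspa5, Xbp1, the synthetase genes and the cell markers) were chosen after their values were seen. Some genes that this rule names are not reported here. Alternatives were other sets of genes for the adjustment, other scalings, copies added, each control library alone, and other pseudocounts.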

Additional observations from a re-analysis of the deposited data

How the results depend on the processing

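The number of members called was 4, and 5 when adjusted over genes with a mean of 10 or more, over protein-coding genes or at an adjusted p under 0.1, in each case with Shmt2 added. It was 3 when adjusted over genes that overlap no other gene, where Psat1 is not tested, and 4 at an adjusted p under 0.01. Dividing each group mean by its sum moved every log2 fold change by -0.0365. Centring on the median of genes with a mean of 10 or more moved each by 0.0083. No member that rose changed its direction, while Atf5, at 0.03, went to -0.01 under the division. With 1 control library in place of both, the log2 fold changes ran from 1.35 to 1.63 for Asns, 0.74 to 1.07 for Trib3, 0.00 to 0.05 for Atf5 and 0.23 to 0.88 for Chac1; for the other members the reads of single libraries could not be solved, nor could calls without a library. In the pair a pseudocount of 5 FPKM lowered the log2 ratios of Asns and Trib3 to 0.69 and 0.73, and one of 0.1 raised them to 1.18 and 1.47. No paired analysis was possible because the table holds group means, and the libraries whose reads could be solved cannot be tied to replicate numbers. Chac1 rests on 6 to 10 reads per library, and 2 against 3 libraries cannot give an exact p below 0.2.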

Other observations

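Atf3 was the pathway gene with the largest rise among those called, but not in both data sets. It had 10 and 6 reads in the 2 control libraries and a dKO mean of 66.1 scaled counts, while the pair had 0.0893 FPKM in the library labelled control and 0.130 in the library labelled dKO. The control libraries also differed from each other at Cebpa, with 897 reads in the deeper and 246 in the shallower (697 and 225 scaled counts), so its log2 fold change was 1.21 against the first and 2.84 against the second. Jdp2, by contrast, had 131 and 122 reads there, or 102 and 112 scaled counts. The fall of Tnfrsf10b was -0.48 against the deeper control library and -0.96 against the shallower on the log2 scale.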
